A study of Mus musculus with 8 samples.

Results

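The genes described here are 40 MYC targets and ribosome biogenesis factors, listed by gene symbol and chosen with earlier results of these data known. All 40 had a value among the 12294 genes measured. They code for the proteins of the box C/D and box H/ACA small nucleolar ribonucleoprotein particles (snoRNPs), nucleolar chaperones, RNA polymerase I and its cofactors, assembly factors of the small and of the large ribosomal subunit, and 3 other targets of MYC (Hspd1, Hspe1 and Odc1). Levels were measured by QuantSeq, a sequencing method that samples only the 3′ end of each messenger RNA, in mouse leukemic progenitor cells called I1DN. The cells were taken from transplanted mice after 5 days of vehicle, AG120 (ivosidenib, which blocks the mutant IDH1 enzyme), AZA (azacitidine, a nucleoside drug that lowers DNA methylation) or both drugs together (AG120_AZA). There were 2 libraries in each of 4 groups, so 4 libraries with AG120 and 4 without it. All groups carried I1DN cells in a transplanted host and all libraries came from cells sorted as cKit-positive and CD11b-negative. What the abbreviation I1DN stands for, and the strain of the hosts, are not given in the labels.

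Values are log2 CPM, the log2 of read counts scaled to a common library size, as normalized by the authors, and a change is a difference on that log2 scale with its standard error. A gene is called changed when limma's adjusted p (Benjamini-Hochberg over all 12294 genes) was below 0.05. The labels say that cells were isolated per mouse but not that the replicates of a group were different mice, so the p-values measure only the spread between these libraries. The normalization removed the library totals and brought all libraries to the same distribution, so a change shared by most genes would not show. The number of distinct values below a gene in its library gives a lower bound on its reads, and for the median member this bound lay between 370 and 669 across libraries. Kit, the gene for cKit, was present in every library at 4.26 to 6.65 log2 CPM, and Itgam, the gene for CD11b, was detected too, at 2.1 to 4.53 log2 CPM. Along the first principal component of all genes, which held 35.7% of the variance, all 4 libraries with AG120 lay at positive values. The 4 without it lay at negative values, with AZA replicate 1 the lowest at -59.7. The AG120_AZA replicate 2 library lay at the other end, at 88.0, and AG120_AZA replicate 1 came next, at 52.6. In bulk samples, fewer cells of a type and less RNA per cell cannot be told apart.

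Ribosomes are built in the nucleolus. RNA polymerase I transcribes the ribosomal RNA precursor, snoRNPs direct its methylation and pseudouridylation, and a long series of assembly factors cuts, folds and packs it with ribosomal proteins into the small and the large subunit. MYC, a transcription factor that pairs with MAX and binds the E-box sequence CACGTG and its relatives, is known to drive many genes of this pathway, and the pathway is a hallmark of growing blood progenitors and leukemic cells.

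To show the kind of sequence that MYC with MAX recognises at these genes, the promoters listed by RefSeq for build GRCm38.p6 (250 bases before to 50 after each listed start) were searched for CACGTG, which reads alike on both strands, and for its relative CACGCG, which reads CGCGTG on the other strand. A promoter was listed for 36 of the 40 members. CACGTG was found in 8 of their 41 listed promoters (19.5%), against 7.15% of all 32851 listed promoters, and by gene in 8 of 36 members (22.2%), against 11.9% of the genes of the expression table that had a listed promoter. The 8 genes were Mybbp1a, Utp4, Utp20, Wdr43, Tsr1, Pes1, Nop2 and Hspd1. CACGCG was found in 15 of the 41 promoters (36.6%), against 9.27% of all listed promoters, and by gene in 14 of 36 members (38.9%), against 20.0% of the table's genes. Of the 8 genes with CACGTG, only Nop2 and Hspd1 were called higher with AG120 in the comparison below. Of those with CACGCG, Nhp2, Mybbp1a, Pes1, Nop16, Noc2l and Nip7 were not called. Whether a match goes with the change was not tested. The 4 stretches below are examples, all from called members, and matches in other members such as Mybbp1a, Bysl and Hspe1 are not shown. They run 5′ to 3′ along the gene's strand, with the motif in capitals. A match describes these letters only and not binding.
Hspd1: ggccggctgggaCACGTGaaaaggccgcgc
Nop2: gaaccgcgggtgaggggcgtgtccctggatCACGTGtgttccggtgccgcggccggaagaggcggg
Odc1: cgggtgggtgggCACGCGctgcgccccgcc
Nolc1: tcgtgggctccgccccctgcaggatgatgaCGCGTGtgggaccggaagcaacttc
The Hspd1 stretch lies at chr1:55088306-55088335 on the minus strand, and its motif begins 80 bases before the listed start, within an exon of the neighbouring gene Hspe1. The Nop2 stretch lies at chr6:125131793-125131858 on the plus strand, with the motif 60 bases before the start and outside any exon. The Odc1 stretch lies at chr12:17544760-17544789 on the plus strand, 101 bases before the start, and a further CGCGTG begins 180 bases before it. The Nolc1 stretch lies at chr19:46075792-46075846 on the plus strand, 25 bases before the start.

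The question first addressed was what AG120 did to these genes over both levels of AZA, that is, in the 4 libraries with AG120 against the 4 without it. Members of every role listed above were among those called higher with AG120. Of the 40 members, 17 were called higher and 0 lower by limma, where 3.38% of all genes were called higher and 2.47% lower, and 29 members had an unadjusted p below 0.05, as did 22.9% of all genes. The median change of the members was 0.56, a 1.48-fold difference, against 0.0075 for all genes. A positive change was seen in 39 of 40 members, against 50.7% of all genes. The normalization to the same distribution holds both all-gene values near those of no change. The largest changes among called members were those of Rrp9 (1.08 ± 0.21, 2.12-fold), Polr1b (1.02 ± 0.24, 2.03-fold), Odc1 (0.99 ± 0.19, 1.99-fold) and Noc4l (0.93 ± 0.25, 1.90-fold). In 24 members (60%) all 4 libraries with AG120 lay above all 4 without it, as did 8% of all genes. In 0 members did they all lie below, as they did in 5.99% of all genes. Since the list was chosen with earlier results of these data known, these shares describe the members and do not test them as a set. The mean level of the 40 members was 6.10 to 6.34 log2 CPM with vehicle, 6.13 to 6.34 with AZA, 6.65 to 6.76 with AG120 and 6.74 to 6.81 with both drugs. Without AG120 replicate 1 only Hspd1 was still called, and without the mean-variance trend of the test only Rrp9 was, while the median change of the members stayed between 0.49 and 0.59 whichever library was left out. Without the AG120_AZA replicate 2 library 9 members were called, 8 of the 17 and also Ncl, and the median was 0.51. The count was also 9 without vehicle replicate 1, 6 without AZA replicate 1 and 7 without AG120_AZA replicate 1.

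**Figure D1:**
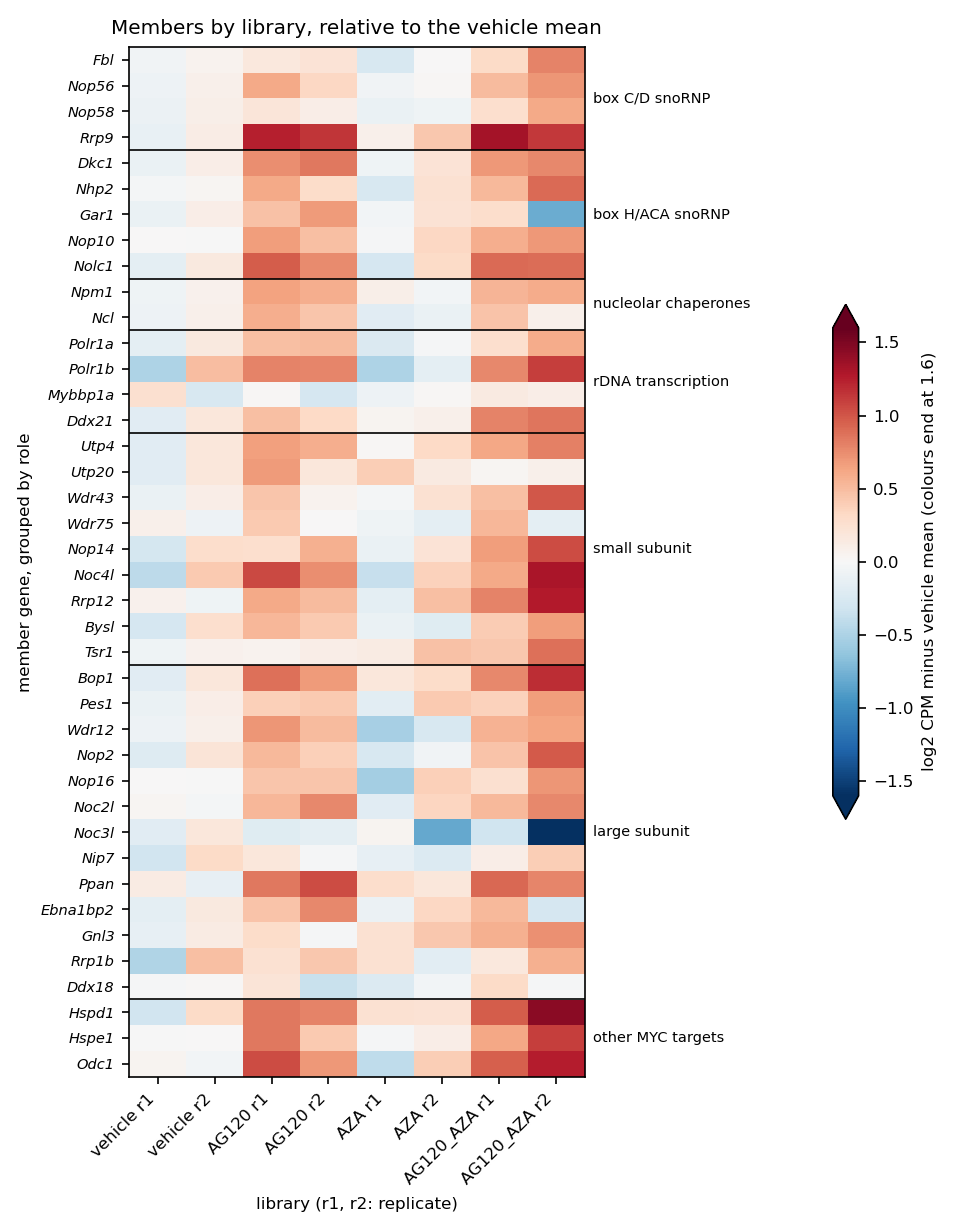
Level of each of the 40 members (rows, grouped by role) in each of the 8 libraries (columns), as log2 CPM minus the vehicle mean of that gene. Most rows are red in the 4 AG120 and AG120_AZA columns, with Noc3l, Gar1 and Mybbp1a among the exceptions.

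Box C/D snoRNPs place methyl groups on ribosomal RNA, with Fbl (fibrillarin) as the methyltransferase and Nop56 and Nop58 as its scaffold, while Rrp9 is a protein of the U3 particle needed for the first cuts of the precursor. All 4 members had positive changes, with a median of 0.49, and 2 were called higher. Rrp9 stood at 3.52 and 3.76 log2 CPM with vehicle, 4.88 and 4.78 with AG120, 3.72 and 4.07 with AZA, and 4.97 and 4.76 with both drugs. The libraries with AG120 were all above 4.7 and those without were all below 4.1, so the groups were clearly apart, and the adjusted p was 0.0125. Nop56 stood at 6.73 and 6.91 with vehicle, 7.43 and 7.15 with AG120, 6.77 and 6.84 with AZA, and 7.33 and 7.53 with both drugs. It was 0.55 ± 0.14 higher with AG120 (adjusted p = 0.0422), with no overlap. Fbl (0.44 ± 0.17, adjusted p = 0.144) and Nop58 (0.34 ± 0.15, adjusted p = 0.193) did not pass the test, although their libraries with AG120 also lay above all the others, by 0.12 and by less than that.

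Box H/ACA snoRNPs convert uridines of ribosomal RNA to pseudouridine. Dkc1 (dyskerin) is their catalytic subunit, Nhp2, Gar1 and Nop10 are the other core proteins, and Nolc1 is a chaperone that carries snoRNPs to the nucleolus. Nolc1, Dkc1 and Nop10 rose with AG120, 3 of the 5 members, and the median change of the 5 was 0.58. Nolc1 stood at 6.37 and 6.69 log2 CPM with vehicle, 7.50 and 7.29 with AG120, 6.26 and 6.84 with AZA, and 7.44 and 7.43 with both drugs (0.87 ± 0.16, adjusted p = 0.0104). Dkc1 stood at 6.14 and 6.35 with vehicle, 6.99 and 7.09 with AG120, 6.17 and 6.47 with AZA, and 6.95 and 7.02 with both drugs (0.73 ± 0.14, adjusted p = 0.0141). In both genes the lowest library with AG120 was more than 0.4 above the highest without it. Nop10 stood at 9.48 and 9.46 with vehicle, 10.14 and 9.95 with AG120, 9.46 and 9.81 with AZA, and 10.05 and 10.16 with both drugs (0.53 ± 0.13, adjusted p = 0.0392). Its AZA replicate 2 library came closest to the AG120 libraries. Nhp2 did not pass (0.58 ± 0.17, adjusted p = 0.0603). Gar1 stood apart from its partners, at 5.85 and 6.05 with vehicle, 6.42 and 6.63 with AG120, 5.91 and 6.18 with AZA, and 6.23 and 5.16 with both drugs. Its AG120_AZA replicate 2 library was the lowest of the 8, and over both AZA levels its change was 0.12 ± 0.26 (adjusted p = 0.822).

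The nucleolar chaperones Npm1 (nucleophosmin, which is often mutated in acute myeloid leukemia) and Ncl (nucleolin, which binds nascent ribosomal RNA) are abundant proteins of the nucleolus. Npm1 was at 9.07 and 9.20 log2 CPM with vehicle, 9.78 and 9.71 with AG120, 9.23 and 9.09 with AZA, and 9.67 and 9.72 with both drugs. It rose by 0.58 ± 0.12 (adjusted p = 0.0173), with the 4 libraries of each kind within 0.2 of each other. Ncl was at 9.32 and 9.50 with vehicle, 9.99 and 9.85 with AG120, 9.23 and 9.31 with AZA, and 9.87 and 9.49 with both drugs. Its change of 0.46 ± 0.13 did not pass (adjusted p = 0.0636), and its AG120_AZA replicate 2 library fell within the range of the vehicle libraries.

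Polr1a and Polr1b code for the largest and the second largest subunit of RNA polymerase I, Ddx21 for an RNA helicase that acts in ribosomal DNA transcription and RNA processing, and Mybbp1a for a nucleolar protein first found as a partner of MYB. Polr1b and Ddx21 rose with AG120. Polr1b was at 4.11 and 5.10 log2 CPM with vehicle, 5.39 and 5.38 with AG120, 4.12 and 4.45 with AZA, and 5.37 and 5.71 with both drugs (adjusted p = 0.0319). The vehicle libraries differed from each other by 0.99, the widest vehicle difference upwards of any member, and vehicle replicate 2 came within 0.3 of the AG120 libraries. Ddx21 was at 6.74 and 7.09 with vehicle, 7.39 and 7.24 with AG120, 6.95 and 6.99 with AZA, and 7.71 and 7.77 with both drugs (0.58 ± 0.15, adjusted p = 0.0400). Its highest levels were the 2 with both drugs. Polr1a did not pass (0.52 ± 0.21, adjusted p = 0.160). Mybbp1a was at 9.38 and 8.86 with vehicle, 9.14 and 8.86 with AG120, 9.04 and 9.14 with AZA, and 9.26 and 9.23 with both drugs, and its libraries with and without AG120 overlapped (0.02 ± 0.15, adjusted p = 0.960).

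Assembly of the small subunit was represented by 9 members. Utp4, Wdr43 and Wdr75 belong to the complex that first binds the precursor RNA, Utp20 and the partners Nop14 and Noc4l to the processome built on it, and Bysl, Rrp12 and Tsr1 act in the later maturation and export of the particle. All 9 had positive changes with AG120, with a median of 0.58, and Bysl and Noc4l were called. Bysl was at 7.20 and 7.73 log2 CPM with vehicle, 7.99 and 7.89 with AG120, 7.35 and 7.27 with AZA, and 7.87 and 8.14 with both drugs (0.58 ± 0.15, adjusted p = 0.0468). Noc4l was at 4.94 and 5.78 with vehicle, 6.41 and 6.11 with AG120, 4.99 and 5.73 with AZA, and 5.97 and 6.67 with both drugs (adjusted p = 0.0478). In both genes the libraries with AG120 lay above all the others, but by less than the vehicle libraries differed from each other. Utp4 (0.58 ± 0.16, adjusted p = 0.0585) and Rrp12 (0.71 ± 0.21, adjusted p = 0.0704) were also separated by library but did not pass. The other 5, Nop14 (0.61 ± 0.24), Wdr43 (0.44 ± 0.17), Wdr75 (0.25 ± 0.19), Tsr1 (0.22 ± 0.18) and Utp20 (0.11 ± 0.24), had overlapping groups and did not pass.

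Among the 13 assembly factors of the large subunit, Bop1, Pes1 and Wdr12 form one complex that is needed to cut the precursor RNA, Nop2 methylates the large ribosomal RNA, and Ppan acts in early assembly. Wdr12, Bop1, Ppan and Nop2 rose with AG120, and the median change of the 13 was 0.40. Wdr12 was at 5.45 and 5.62 log2 CPM with vehicle, 6.24 and 6.05 with AG120, 5.01 and 5.28 with AZA, and 6.10 and 6.17 with both drugs (0.80 ± 0.17, adjusted p = 0.0184). The AZA libraries were below the vehicle libraries here, and those with AG120 were above both. Bop1 was at 5.16 and 5.54 with vehicle, 6.23 and 6.03 with AG120, 5.53 and 5.64 with AZA, and 6.12 and 6.53 with both drugs (0.76 ± 0.17, adjusted p = 0.0243). Pes1, the third protein of that complex, had overlapping groups and did not pass (0.40 ± 0.17, adjusted p = 0.195). Ppan was at 4.24 and 3.98 with vehicle, 4.95 and 5.15 with AG120, 4.39 and 4.29 with AZA, and 5.03 and 4.89 with both drugs (0.78 ± 0.20, adjusted p = 0.0393). Its groups were 0.50 apart at their nearest, yet the call was lost whichever of the 8 libraries was left out. Nop2 was at 6.40 and 6.80 with vehicle, 7.12 and 6.98 with AG120, 6.34 and 6.54 with AZA, and 7.06 and 7.58 with both drugs (0.66 ± 0.18, adjusted p = 0.0486), with AG120_AZA replicate 2 the highest.

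Of the remaining large-subunit factors, Noc2l (0.61 ± 0.17, adjusted p = 0.0546) had no overlap between libraries with and without AG120 and narrowly missed the threshold. Nop16 (0.50 ± 0.20), Rrp1b (0.33 ± 0.23), Ebna1bp2 (0.31 ± 0.22), Nip7 (0.25 ± 0.19), Gnl3 (nucleostemin, a GTPase of the nucleolus, 0.23 ± 0.15) and the helicase gene Ddx18 (0.10 ± 0.17) had overlapping groups, and none of these 6 passed. Noc3l, whose yeast homologue works in ribosome assembly and in replication, was the only member with a negative change. It was at 3.03 and 3.39 log2 CPM with vehicle, 3.01 and 3.05 with AG120, 3.25 and 2.39 with AZA, and 2.90 and 0.08 with both drugs. The AG120_AZA replicate 2 value rested on at least 4 reads by the bound described above, where the other 7 libraries gave at least 30 to 68. Its change of -0.76 ± 0.55 (adjusted p = 0.445) did not pass.

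The members that are not ribosome assembly factors were Hspd1 and Hspe1, the chaperonin and co-chaperonin that fold proteins in mitochondria, and Odc1, ornithine decarboxylase, which makes the first polyamine. All 3 rose with AG120. Hspd1 was at 7.95 and 8.56 log2 CPM with vehicle, 9.10 and 9.05 with AG120, 8.50 and 8.49 with AZA, and 9.22 and 9.70 with both drugs (0.90 ± 0.16, 1.86-fold, adjusted p = 0.00953). Hspe1 was at 8.50 and 8.51 with vehicle, 9.35 and 8.93 with AG120, 8.49 and 8.62 with AZA, and 9.12 and 9.62 with both drugs (0.72 ± 0.15, adjusted p = 0.0185). Both chaperonin genes were highest in AG120_AZA replicate 2. Odc1 was at 6.40 and 6.32 with vehicle, 7.41 and 7.05 with AG120, 5.95 and 6.75 with AZA, and 7.31 and 7.62 with both drugs (adjusted p = 0.0117). The AZA libraries of Odc1 differed from each other by more than the vehicle libraries did, and both stayed below every library with AG120.

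**Figure D2:**
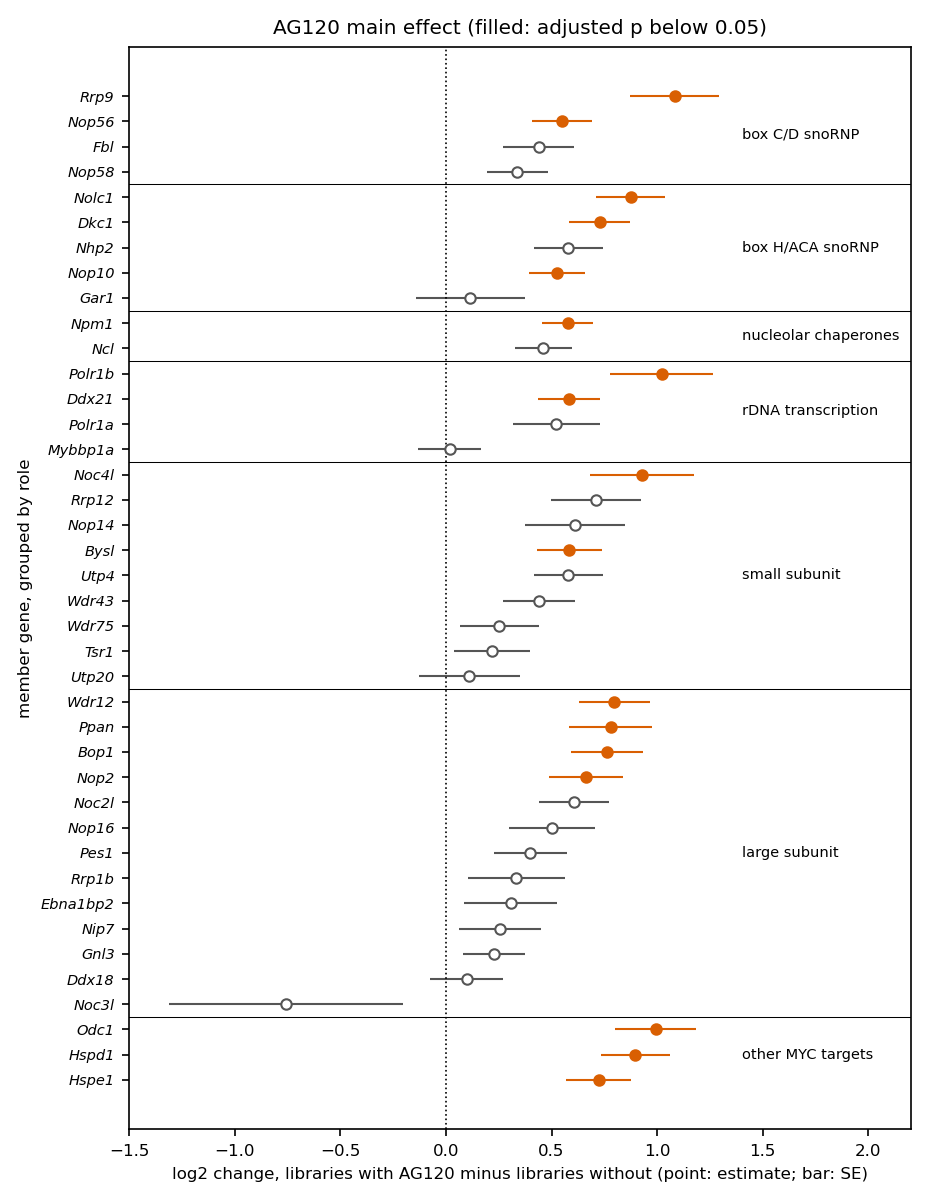
Change of each member between the 4 libraries with AG120 and the 4 without, in log2 units, with the standard error as a bar, grouped by role and filled where the adjusted p was below 0.05. All points but Noc3l lie to the right of 0, and the 17 filled points come from every role group.

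Not all of these calls were equally stable. When each of the 8 libraries was left out in turn, Hspd1 was called all 8 times, Dkc1, Nolc1, Odc1 and Rrp9 7 times, Hspe1 and Npm1 6 times, and Bop1 and Wdr12 5 times. Ddx21, Noc4l, Nop2 and Polr1b were called 2 times, and Bysl, Nop10 and Nop56 once.

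Split into the separate treatments, the changes were of like size, but with 2 libraries a group few members passed. With AG120 alone against vehicle, limma called 0 of 40 members in either direction, where 0.358% of all genes were called higher and 0.22% lower. The unadjusted p was below 0.05 for 17 members and for 13.1% of all genes. A positive change was seen in 37 members, against 50.2% of all genes, and the members' median was 0.48. The 4 smallest p-values belonged to Rrp9 (1.19 ± 0.31, adjusted p = 0.125), Dkc1 (0.79 ± 0.21, adjusted p = 0.141), Nolc1 (0.87 ± 0.24, adjusted p = 0.151) and Npm1 (0.61 ± 0.17, adjusted p = 0.167), and these did not pass. The other fits of this comparison, and those without 1 library, also called 0 members.

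With both drugs against vehicle, 1 member was called higher and 0 lower, where 1.63% of all genes were called higher and 1.38% lower, and 28 members had an unadjusted p below 0.05, as did 21.4% of all genes. The member called was Hspd1 (1.21 ± 0.24, adjusted p = 0.0228). Ddx21 (0.83 ± 0.20, adjusted p = 0.0542), Odc1 (1.11 ± 0.27, adjusted p = 0.0552) and Rrp9 (1.23 ± 0.31, adjusted p = 0.0564) came next and did not pass. The median change was 0.64, and 38 members had a positive change, all but Noc3l and Gar1, against 51.2% of all genes. The call of Hspd1 was lost when either vehicle replicate 1 or AG120_AZA replicate 2 was left out, and in the absence of AG120_AZA replicate 1 it was joined by Bop1 and Hspe1. Noc3l was then called lower.

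With both drugs against AZA alone, limma called 0 members in either direction, where 1.06% of all genes were called higher and 1.2% lower. The unadjusted p was below 0.05 for 25 members and for 19.6% of all genes. A positive change was seen in 37 members, against 52.1% of all genes, and the members' median was 0.60. Wdr12 (0.99 ± 0.23, adjusted p = 0.0544), Hspd1 (0.97 ± 0.24, adjusted p = 0.0588), Odc1 (1.11 ± 0.27, adjusted p = 0.0597) and Ddx21 (0.77 ± 0.20, adjusted p = 0.0742) had the smallest p-values and did not pass. Leaving out 1 library gave up to 3 members called higher, namely Hspd1, Hspe1 and Nop2 without AG120_AZA replicate 1, and Noc3l was then called lower. The comparison of AG120 with vehicle and that of both drugs with AZA have no library in common. In both, 35 of the 40 members had a positive change, and the share of all genes that did was not counted.

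**Figure D3:**
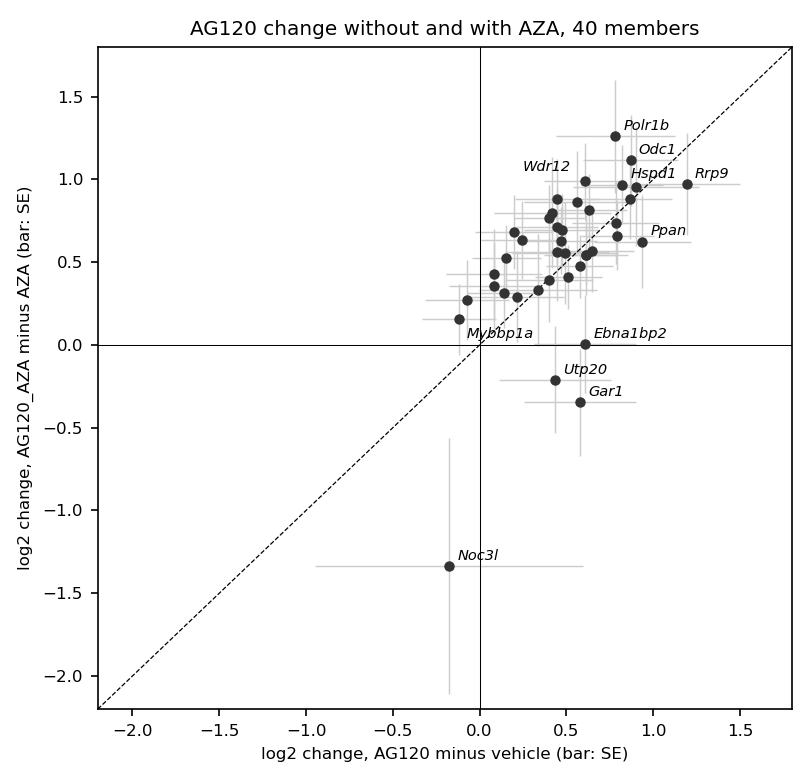
Change of each member with AG120 in the absence of AZA (horizontal, AG120 minus vehicle) against its change in the presence of AZA (vertical, AG120_AZA minus AZA), in log2 units with standard errors and the line of equal change. Of the 40 points 35 lie in the upper right, with Noc3l in the lower left.

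AZA left the members close to where they were. Against vehicle, AZA alone gave 0 members called by limma in either direction, as it did for all genes (0% called higher and 0% lower), and 0 members had an unadjusted p below 0.05, against 3.51% of all genes. The median change was 0.03, with 22 of 40 positive, against 48.9% of all genes. The 4 smallest p-values belonged to Wdr12 (-0.39 ± 0.23), Gnl3 (0.33 ± 0.21), Tsr1 (0.30 ± 0.26) and Hspd1 (0.24 ± 0.24), all with an adjusted p of 1. Added to AG120, AZA gave 0 members called against AG120 alone (0% of all genes called higher and 0% lower), with a median of 0.11 and 3 unadjusted p-values below 0.05, a share under the 10.1% of all genes. Gar1 (-0.83 ± 0.32, adjusted p = 0.450), Gnl3 (0.51 ± 0.21, adjusted p = 0.457), Tsr1 (0.58 ± 0.26, adjusted p = 0.490) and Ddx21 (0.43 ± 0.20, adjusted p = 0.513) had the smallest p-values. Without AG120_AZA replicate 1, Gar1 and Noc3l were called lower in that comparison, which then rested on the AG120_AZA library where both were lowest. Over both levels of AG120, AZA again gave 0 members called (0% of all genes in each direction), with a median of 0.06 and 2 unadjusted p-values below 0.05, where 6.19% of all genes had one. Gnl3 (0.42 ± 0.15), Tsr1 (0.44 ± 0.18), Hspd1 (0.31 ± 0.16) and Wdr43 (0.30 ± 0.17) came first, each with an adjusted p of 0.771. The other fits called 0 members for AZA alone or over both levels of AG120.

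Whether the AG120 change differed between mice with and without AZA was asked with the interaction term. Limma called 0 members in either direction, as it did 0% of all genes in each, and 0 members had an unadjusted p below 0.05, against 6.22% of all genes. The other fits, and those without 1 library, called 0 members too. The median interaction was 0.13, with 25 of 40 positive, against 51.2% of all genes. Gar1 (-0.92 ± 0.45, adjusted p = 0.801), Fbl (0.48 ± 0.32, adjusted p = 0.813), Ebna1bp2 (-0.60 ± 0.42, adjusted p = 0.816) and Utp20 (-0.64 ± 0.46, adjusted p = 0.820) had the smallest p-values. The standard error of the interaction ran up to 0.46 among these 4 genes, so differences in response of that size were not detectable with 2 libraries a group.

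The members moved together from library to library. Over the 8 libraries, which fall into 4 groups and share those groups' treatments, the median correlation between 2 members was 0.717 across 780 pairs, and 88.8% of the pairs were above 0. The levels of Nolc1 (r = 0.986), Utp4 (0.979) and Nop56 (0.969) followed the mean of the other members most closely, and 26 members had an r above 0.8. Mybbp1a (-0.02) and Noc3l (-0.55) were below 0 and Gar1 was at 0.03. Replicates differed as a block too. In the vehicle group 32 of 40 members were higher in replicate 2, with a median difference of 0.21. In the AZA group 31 were, with a median difference of 0.24, and in the AG120_AZA group 30 were, with a median difference of 0.26. In the AG120 group only 12 were, with a median difference of -0.11. These differences between replicates were smaller than the median AG120 change of 0.56.

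Of the MYC genes themselves, Myc was not called in any comparison and Mycn was called lower with AG120. Myc was at 4.71 and 4.68 log2 CPM with vehicle, 4.91 and 4.92 with AG120, 5.06 and 3.19 with AZA, and 4.27 and 2.03 with both drugs. Both AG120 libraries lay slightly above both vehicle libraries, and its lowest values were replicate 2 of the AZA and AG120_AZA groups. Its change with AG120 was -0.38 ± 0.50 (adjusted p = 0.689), with the sign depending on single libraries (0.11 without AZA replicate 1 and 0.19 without AG120_AZA replicate 2), and with both drugs against vehicle it was -1.55 ± 0.69 (adjusted p = 0.223). Mycn, a relative of Myc with the same partner, was at 2.84 and 3.04 with vehicle, -0.09 and -0.99 with AG120, 2.77 and 0.72 with AZA, and 0.39 and -0.34 with both drugs. It fell by 2.60 ± 0.65 with AG120 (adjusted p = 0.0393), with all 4 libraries with AG120 below the others, although the call was lost when any 1 of 7 libraries was left out. Mycl was not analysed here. Across the 12 measured genes of the MYC network (MYC proteins, Max and the Mxd, Mxi1, Mnt, Mga and Mlx family with Mlxip and Zbtb17), 2 had positive changes with AG120, 0 were called higher and Mycn alone was called lower, and the median was -0.17.

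**Figure D4:**
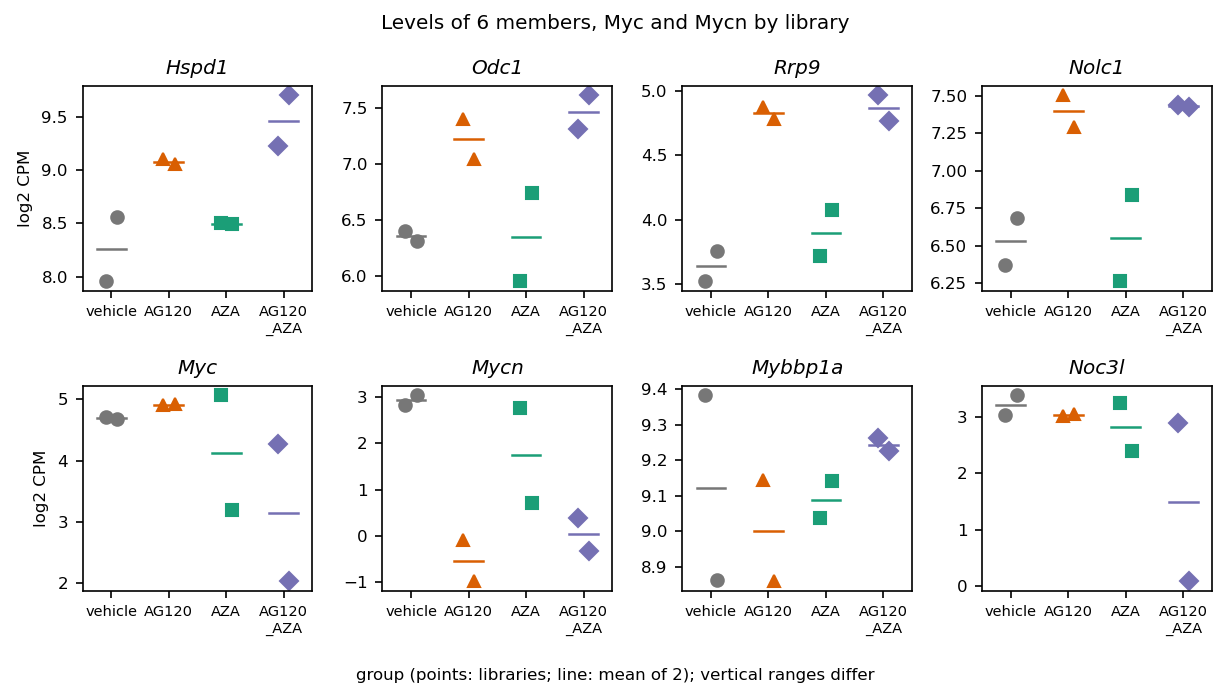
Levels in log2 CPM of 6 members (Hspd1, Odc1, Rrp9, Nolc1, Mybbp1a and Noc3l) and of Myc and Mycn, by treatment group; points are libraries, lines are means of 2 and vertical ranges differ between panels. Hspd1, Odc1, Rrp9 and Nolc1 are higher in both groups with AG120, Mycn is lower there, and Myc is lowest in 1 library of AZA and 1 of AG120_AZA.

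Other genes of the pathway, from lists that exclude the members, mostly had positive changes with AG120 too, with smaller medians than the members. Of 38 other MYC targets measured, 33 had positive changes with a median of 0.43, and 7 were called higher and 0 lower. They were led by Tfrc (the transferrin receptor, 0.84 ± 0.16, adjusted p = 0.0108), Phb and Phb2 (prohibitins of the mitochondrial inner membrane, 0.78 ± 0.15, adjusted p = 0.0109, and 0.65 ± 0.14, adjusted p = 0.0211) and Cad (which starts pyrimidine synthesis, 0.89 ± 0.18, adjusted p = 0.0166). Of 10 other snoRNP factors, 7 were positive, Ruvbl1 (an ATPase that helps to assemble snoRNPs, 0.84 ± 0.21, adjusted p = 0.0388) and Snu13 (a box C/D core protein, 0.57 ± 0.15, adjusted p = 0.0458) were called higher and 0 lower, and the median was 0.47. Of 12 other RNA polymerase I factors, 7 were positive with a median of 0.10, and only Polr1e, a further subunit of the enzyme, was called (1.33 ± 0.31, adjusted p = 0.0301).

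Of 39 other small-subunit factors, 35 were positive, with a median of 0.37. Rcl1 (0.82 ± 0.16, adjusted p = 0.0145) and Pwp2 (1.24 ± 0.26, adjusted p = 0.0187), both parts of the small-subunit processome, were called higher. Krr1, a factor of the same processome, went the other way. It was at 8.77 and 8.92 log2 CPM with vehicle, 7.80 and 8.04 with AG120, 9.04 and 8.72 with AZA, and 7.66 and 7.05 with both drugs, with no overlap, and it fell by 1.22 ± 0.18 (adjusted p = 0.00331). Of 44 other large-subunit factors, 38 were positive with a median of 0.35, and 6 were called higher and 0 lower, led by Mrto4 (0.80 ± 0.16, adjusted p = 0.0163), Wdr18 (0.94 ± 0.20, adjusted p = 0.0176), Ftsj3 (0.74 ± 0.16, adjusted p = 0.0214) and Nifk (0.72 ± 0.16, adjusted p = 0.0234). Against the 3.38% of all genes called higher, the share called higher was 18.4% for the other MYC targets and 20.0% for the other snoRNP factors. It was 8.33% for the other RNA polymerase I factors, 5.13% for the small-subunit factors, 13.6% for the large-subunit factors and 42.5% for the members. The members and these lists were chosen with earlier results of these data known. The higher share of the members therefore cannot show that they stand out from the rest of the pathway.

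The genes of the ribosomal proteins themselves had a median change near 0. Of 79 cytosolic ribosomal protein genes, 40 had positive changes with AG120 and the median was 0.003, and limma called 0, with 3 at an unadjusted p below 0.05. Their mean level was 9.27 to 9.45 log2 CPM with vehicle, 9.37 in both AG120 libraries, 9.33 to 9.47 with AZA and 9.39 to 9.43 with both drugs, so the groups overlapped. Many ribosomal protein genes have near-identical processed copies, and how reads shared with these were counted is not stated. Of 26 cell cycle genes 17 were positive with a median of 0.13. Cdc20, an activator of the anaphase-promoting complex, was called higher (0.64 ± 0.16, adjusted p = 0.0388) and Ccnd1, cyclin D1, lower (-2.15 ± 0.34, adjusted p = 0.00447). Of 6 genes of the nucleolar stress response, which joins ribosome assembly to p53, only Cdkn2a was called (1.73 ± 0.38, adjusted p = 0.0214), and its libraries with AG120 ranged from 3.70 to 5.23 log2 CPM with vehicle replicate 1 at 3.89.

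Markers of cell identity moved with AG120 in the same libraries, and their part in the members' change was not tested. All 8 measured progenitor markers had negative changes, 6 of them called lower, with a median of -1.5, and Kit, used in the sort, fell by 1.33 ± 0.27 (adjusted p = 0.0162). The summed level of the progenitor markers was 983 to 1276 CPM with vehicle, 359 to 417 with AG120, 804 to 1039 with AZA and 289 to 310 with both drugs. Of 16 erythroid markers 10 were positive and 8 called higher, with a median of 1.22, among them the transcription factor gene Klf1 (3.36 ± 0.25, adjusted p = 7.43e-05) and also Tfrc, which is on both the erythroid and the MYC target list. The other 6 had negative changes and 0 were called lower. They were the globin genes Hbb-bs, Hbb-bt, Hba-a1 and Hba-a2, with Alas2 and Slc4a1, so the list was split. Hbb-bs was at 10.62 and 10.10 log2 CPM with vehicle and 9.64 and 7.39 with AG120. It was at 10.40 and 11.63 with AZA and 11.33 and 11.20 with both drugs. The summed level of all 16 erythroid markers was 1827 to 2704 CPM with vehicle and 906 to 2338 with AG120. It was 2133 to 4977 with AZA and 4521 to 4538 with both drugs, so in CPM the AG120 and vehicle libraries overlapped. All 12 basophil, mast cell and eosinophil markers were positive and 7 called higher, with a median of 2.99, and Ms4a2, which codes for a subunit of the IgE receptor, was 3.66 ± 0.24 higher (adjusted p = 4.71e-05). Their summed level was 1094 to 1418 CPM with vehicle, 3841 to 4112 with AG120, 1643 to 1654 with AZA and 2521 to 3966 with both drugs. No marker of these 3 lists stood at the lowest value of its library in all 8 libraries, and Fcer1a did so in 3, Ear2 in 2, and Flt3 and Ermap in 1.

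**Figure D5:**
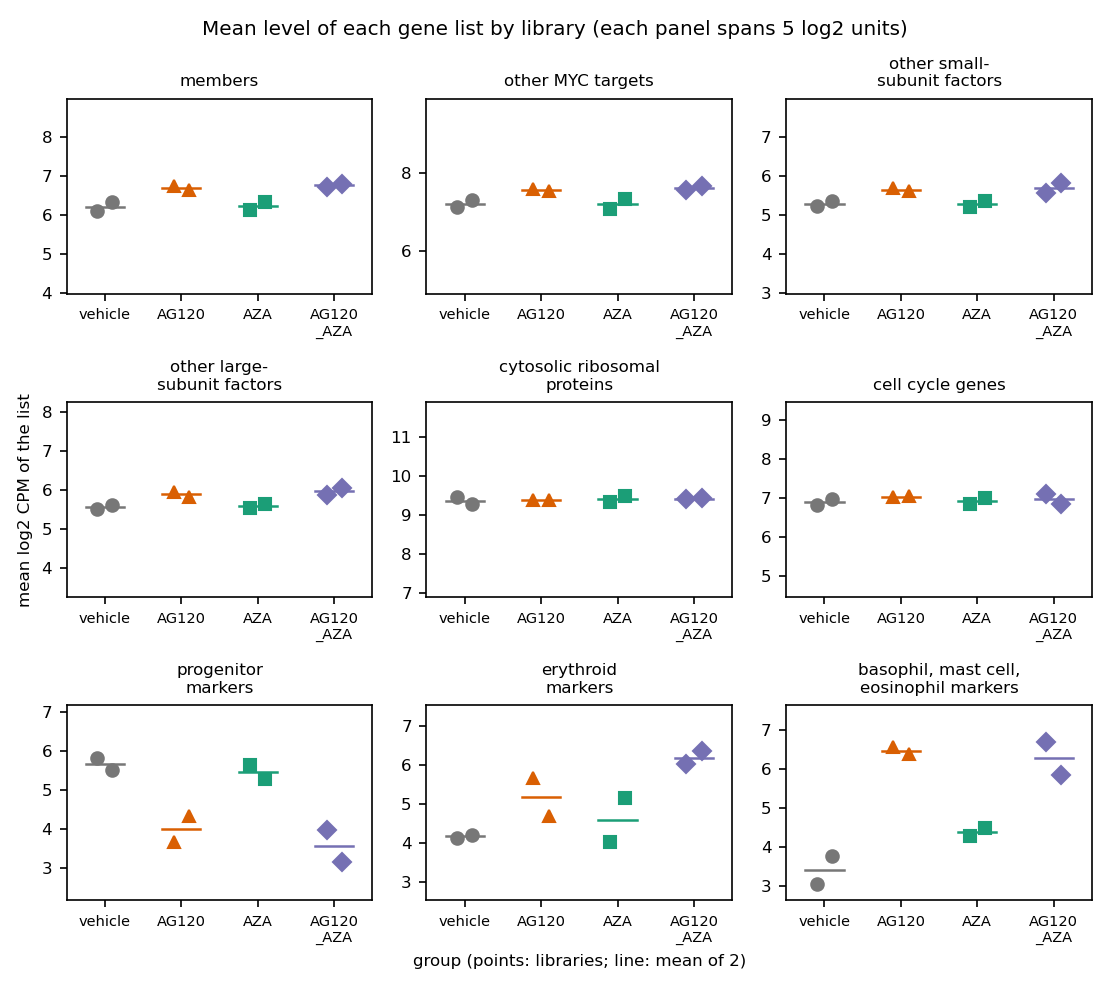
Mean log2 CPM of the members and of 8 other gene lists in each library, by treatment group; every panel spans the same number of log2 units, and lines are means of 2 libraries. The members stand at 6.65 to 6.81 with AG120 and at 6.10 to 6.34 without, ribosomal proteins are level, and the marker lists in the bottom panels move by more.

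Over both AZA levels, the neutrophil list and the monocyte and dendritic list mostly had negative changes with AG120. Of 14 neutrophil markers 0 were positive with AG120, 1 (Ngp) was called lower and the median was -1.66, and of 9 monocyte and dendritic markers 1 was positive, 4 (Ms4a6c, Irf8, Csf1r and F13a1) were called lower and the median was -1.55. Neutrophil markers summed to 9004 to 26525 CPM with vehicle, 12050 to 21405 with AG120, 22342 to 25012 with AZA and 3350 to 7700 with both drugs. Monocyte and dendritic markers summed to 826 to 1766 CPM with vehicle, 573 to 812 with AG120, 951 to 1210 with AZA and 378 to 490 with both drugs. Of the B cell markers 1 of 6 was measured, at sums of 6.79 to 25.1 CPM, and of the T and NK cell markers 3 of 8, at sums of 585 to 1099 CPM, and none of these 4 was called.

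Some of the members have pseudogenes or neighbours that may bear on their values, which was not measured. Hspd1 (chr1:55077835-55088243, minus strand) and Hspe1 (chr1:55088132-55091307, plus strand) are neighbours read in opposite directions in GRCm38. Their levels had an r of 0.916 over the 8 libraries, no higher than the r of each with the mean of the other members (0.927 and 0.918). In the GENCODE M21 annotation 5 pseudogenes are named after Hspd1 and 6 after Hspe1, and how reads shared with these were counted is not stated, so both values are uncertain to that extent. In 8 members an exon of another protein-coding gene on the opposite strand lies within the last 500 bases, where QuantSeq reads fall. These are Bop1 (Mroh1), Bysl (Ccnd3), Dkc1 (Mpp1), Mybbp1a (Spns2), Nhp2 (Rmnd5b), Noc2l (Samd11), Nop56 (Idh3b) and Tsr1 (Srr). Whether reads were counted by strand is not stated, and how far each overlap reaches was not measured. It is therefore unknown whether reads of the neighbour entered the values of these members. Of the 17 members called with AG120, Bop1, Bysl, Dkc1 and Nop56 are among them.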

How the data were processed

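QuantSeq 3′ RNA-seq libraries of sorted I1DN cells were used, 8 in all. The submitters' processing notes name edgeR 3.28.1 and limma 3.42.2 (in R 3.6.2), featureCounts and Subread 1.6.3, HISAT2 2.1.0 with mm10, and cutadapt 1.14 and bcl2fastq 2.17.1.14. The annotation and strand setting used in counting are not given in the sources used here. The values are log2 CPM as deposited by the authors. All libraries share the maximum of 13.37 and nearly the same sum, so they had been brought to one distribution, and true depths are unknown.

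The deposited values were tested in limma 3.58.1 (R 4.3.3, lmFit, then eBayes with a mean-variance trend), without further scaling or filter. The procedure was also run on simulated data, with independent noise for each gene and changes larger than those of the members. That run does not bear on calls of changes as small as the members'. A fit of 4 group means (residual degrees of freedom 4, prior 7.06) gave the pairwise comparisons and the interaction. The effect of each drug over both levels of the other came from a fit without the interaction (residual degrees of freedom 5, prior 6.85). The p-values are two-sided and adjusted by Benjamini-Hochberg over 12294 genes, with 0.05 as threshold.

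The members and lists (MYC network, other MYC targets, RNA polymerase I, snoRNP, small-subunit and large-subunit factors, nucleolar stress, ribosomal protein, cell cycle and cell type marker genes) were chosen with earlier results of these data known. The result of 1 marker list is not reported here. Every called member is named per comparison. Where fewer than 4 were called, the 4 with the smallest p are named too. Up to 4 called genes are named per context list, plus the MYC genes; marker genes and Krr1 values were added after seeing them. Gene spans and neighbours come from GENCODE M21, in which all 40 members matched, and promoters from RefSeq. Alternatives were 6 other fits and leaving out each library. Among the 6, re-centring on expressed genes could hardly differ from the reported fit, as its largest shift was -0.0042, in AG120_AZA replicate 2.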

Additional observations from a re-analysis of the deposited data

How the results depend on the processing

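The number of members called depended on the fit more than the direction of their changes did. For AG120 over both AZA levels, 17 members were called higher in the reported fit, 1 without the mean-variance trend and 17 with vooma weights. There were 15 among genes with a mean log2 CPM of at least 5, of which 13 were among the 17. Rrp9, Polr1b and Ppan had a mean below 5 and were not tested there. Noc4l was tested and no longer called, while Noc2l and Utp4 were newly called. Counts with this filter, here and over all genes below, come from fewer genes. With the replicate block 16 were called, where Bysl and Nop56 were no longer called and Noc2l was. When 1 library was left out there were from 1 to 14 (1 without AG120 replicate 1, 6 without AZA replicate 1, 7 without AG120_AZA replicate 1, and 9 without vehicle replicate 1 or AG120_AZA replicate 2). Some of these counts hold a member outside the 17, such as Ncl without AG120_AZA replicate 2 and Nhp2 without AG120 replicate 2. For both drugs against vehicle, the 1 member called higher became 0 without the trend and 0 with only the groups compared, and from 0 to 3 when 1 library was left out, with from 0 to 1 called lower. Leaving out 1 library gave from 0 to 2 members called lower for both drugs against AG120, and from 0 to 3 called higher and 0 to 1 lower for both drugs against AZA. With single libraries left out, the arm with 1 library was assumed to vary like the other groups. The sign of some small changes turned: Hspd1 with AZA against vehicle ranged from -0.061 (without vehicle replicate 1) to 0.54 (without vehicle replicate 2), and Myc with AG120 ranged from -0.71 (without AG120_AZA replicate 1) to 0.19, being 0.11 without AZA replicate 1 and 0.19 without AG120_AZA replicate 2. The members' median turned from 0.03 to -0.09 for AZA against vehicle without AZA replicate 2, and from 0.13 to -0.03 for the interaction without vehicle replicate 2. The cause of these differences was not tested. Counts over all genes moved too. For AG120 over both AZA levels the 719 called genes became 211 without the trend and 369 with the filter, and 201 to 771 when 1 library was left out. For AG120 against vehicle 71 became 0 without the trend, 39 with vooma weights, 23 with the filter, 18 with only the groups compared, and 8 to 103 when 1 library was left out. For both drugs against vehicle 371 became 43, 290, 82 and 200 in the same order, and 37 to 727. For both drugs against AZA 278 became 9 without the trend and 67 with the filter, and 14 to 594. Counts of 0 became 2 without the trend and 1 with only the groups compared for AZA against vehicle, up to 213 for both drugs against AG120 and up to 29 for the interaction when 1 library was left out. Over all genes, libraries with the same replicate number did not deviate together (correlations of -0.11 to 0.19 over 6 pairs of groups). The numbers were therefore not taken as pairs. Most members were nevertheless higher in replicate 2 in the vehicle, AZA and AG120_AZA groups, though not in the AG120 group. The replicate block changed the count of called members in no other comparison. A fit of only the groups compared is not defined for the effects over both levels or the interaction. Low reads limit Noc3l in AG120_AZA replicate 2, and the loss of library totals limits statements on depth.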
